A study of Ovis aries with 30 samples.

Results

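IGF1, IGF2 and the IGF2 receptor (IGF2R, written IGF-IIR in the array's annotation) were described in the fat that covers the heart (epicardial adipose tissue) of fetal and newborn sheep. They were found by gene name, or by an insulin-like growth factor 1, 2 or 2 receptor in the probe's description, with the binding proteins left out. That gave 6 probes of the 15008 on a 1-colour Agilent sheep array, and 3 genes of the 1030 different names on it. IGF1 had 1 probe, IGF2 had 2 and IGF2R had 3.

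RNA came from 30 animals in 4 groups. Control fetuses (n = 8) were at term and their ewes received no cortisol, while CORT fetuses (n = 6) were of the same age and their ewes were infused with 1 mg/kg per day of cortisol. Control lambs (n = 7) were 2 weeks old, and CORT lambs (n = 9) were of that age and born to ewes infused with 0.5 mg/kg per day. Infusion of the ewes started on gestational day 115, and no lamb or fetus was infused itself. The lamb and fetal doses differed, so a difference between the cortisol effects at the 2 ages is a difference between 2 exposures as well. The study reports that the lambs' ewes were infused overnight only, and that infusion stopped after delivery. The lambs were thus sampled about 2 weeks after exposure ended, which also enters that difference. Some lambs were twins and the labels do not tell which share a ewe, so the tests treated all lambs as independent.

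Insulin-like growth factors are small secreted hormones that drive growth before and after birth. IGF2 is the chief growth factor of fetal tissues and its gene is imprinted, while IGF1 is made in liver and in many other tissues, including fat, largely under growth hormone. Both act through the type 1 receptor (IGF1R). IGF2R is a clearing and sorting receptor more than a growth-signalling one: it takes IGF2 up for breakdown in lysosomes and delivers enzymes tagged with mannose 6-phosphate to them. Binding proteins (IGFBPs) hold the hormones outside cells and set how much reaches the receptors.

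The probe sequences are shown because they set what each reading can tell: 2 of the 3 IGF2R probes are nearly one sequence, so they count as 1 measurement and not as 2. Each probe is 60 bases long. In the first pair the capitals mark the 59 bases that IGF2R probe 1 (A_70_P041802) and probe 2 (A_70_P041801) share.
IGF2R probe 1: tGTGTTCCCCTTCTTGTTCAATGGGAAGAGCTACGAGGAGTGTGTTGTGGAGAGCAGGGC
IGF2R probe 2: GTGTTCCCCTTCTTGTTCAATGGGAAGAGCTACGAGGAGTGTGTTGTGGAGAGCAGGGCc
IGF2R probe 3: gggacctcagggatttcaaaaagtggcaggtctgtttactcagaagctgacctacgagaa

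IGF2R probe 3 (A_70_P026306), which the array names M6P/IGF2R, reads another stretch of the message from another database entry. The first 45 bases of the IGF1 probe (A_70_P051091) end in the stop codon, in capitals at bases 43 to 45, and the remaining 15 bases lie beyond it. The second IGF2 probe (A_70_P016796) is the other one shown, and the first IGF2 probe (A_70_P029956) begins further along the same transcript, at base 1147 against base 583.
IGF1 probe, first 45 bases: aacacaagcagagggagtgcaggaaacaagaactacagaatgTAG
IGF2 probe 2: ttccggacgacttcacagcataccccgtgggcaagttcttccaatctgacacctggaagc

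In the sheep assembly ARS-UI_Ramb_v3.0, IGF1 lies on chromosome 3, IGF2 on chromosome 21 and IGF2R on chromosome 8. All 6 probes were well above background in all 30 animals and all 6 passed the brightness filter that kept 13077 probes for testing. Values below are normalized intensities on the log2 scale, so a difference of 1 is a doubling. Levels of different probes are not compared, since each probe binds with its own strength. In whole tissue, fewer cells of a type and less RNA per cell cannot be told apart.

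Median foreground intensity per array was between 132 and 240 against a local background of 34 to 46. Fetuses lay on 2 slides and lambs on another pair, with both treatments on every slide. All 9 adipocyte markers on the array were well above background in every animal, and so were the 4 stromal and the 2 muscle markers. The muscle protein MB ranged from 9.61 to 16.89 over all animals and was highest in Control lamb 6. Correlations between arrays of a group were between 0.957 and 0.993, and no pair was identical. Control fetus 2 stood apart, with a median correlation of 0.963 with its group and a level of 17.20 for the skeletal muscle troponin TNNC2, where the next highest of the other 29 animals was at 10.17. Several of the differences below are also given without this animal.

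IGF1 was higher after birth, and it was the only one of the 3 genes for which any comparison passed the adjusted threshold. In Control fetuses its level ranged from 10.63 to 12.28 with a median of 11.54. In Control lambs it ranged from 12.17 to 13.25 with a median of 12.61. All 7 Control lambs lay above the fetal mean and 6 of the 7 above the highest fetus, so the groups overlapped through 1 lamb.

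The mean rose from 11.42 ± 0.54 (SD, n = 8) to 12.62 ± 0.36 (SD, n = 7). That was a difference of 1.21 (SE 0.22), or 2.31-fold with a 95% interval from 1.67 to 3.19, with limma adjusted p = 0.000354. The exact two-sided permutation p over all 6435 splits of these animals was 0.000466. Change was common at this step: limma called 40.9% of the probes tested (19.9% higher and 21% lower), against 1 of the 6 IGF probes. Without Control fetus 2 the IGF1 difference was 1.11, with adjusted p = 0.000529. With slide as a random block it was 1.20, with adjusted p = 0.00237. The slides each hold 1 age, so this block cannot separate age from a difference between the fetal and the lamb slides.

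**Figure D1:**
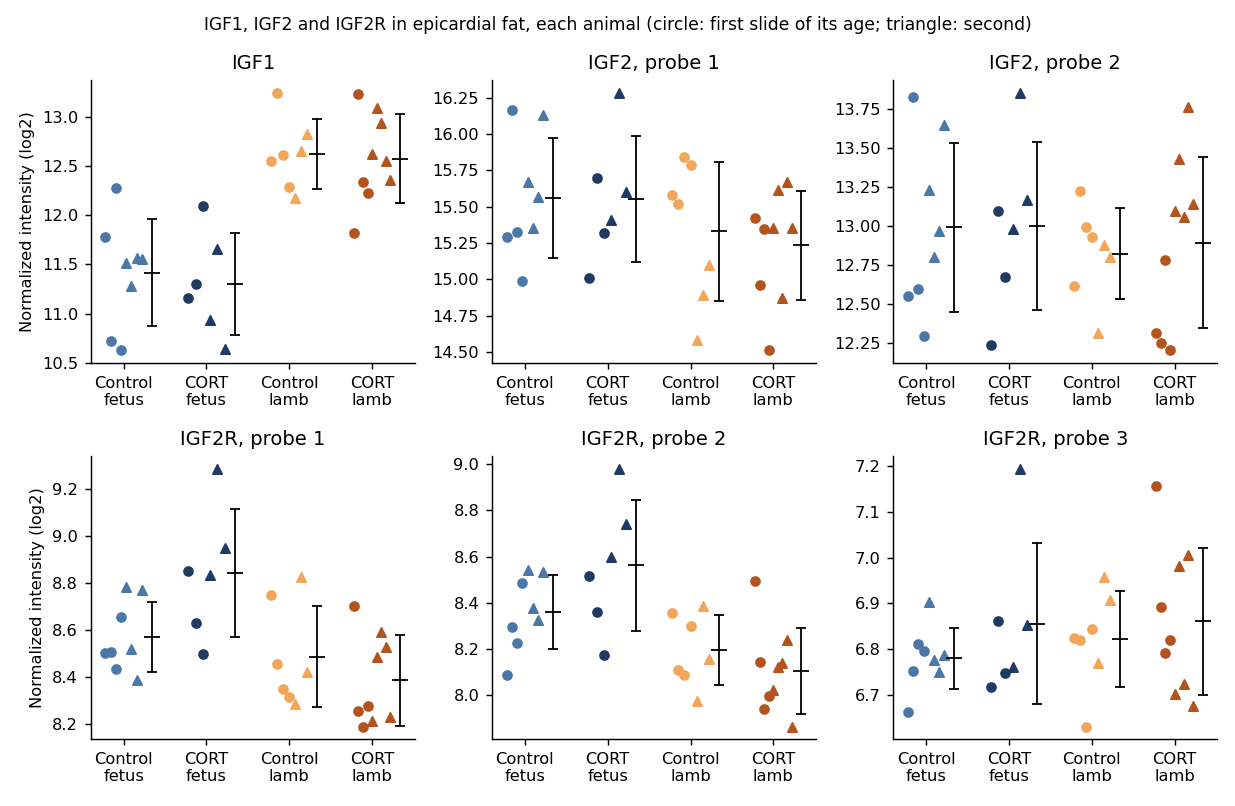
Normalized log2 intensity of each animal for the 6 probes of IGF1, IGF2 and IGF2R in the 4 groups, with the mean and SD beside the points; circles are animals on the first slide of their age and triangles those on the second. For IGF1 6 of the 7 Control lambs lie above all Control fetuses, and for the other probes the Control groups of both ages overlap widely.

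The CORT animals of each age lay over the range of their Controls for IGF1. CORT fetuses ranged from 10.64 to 12.09 with a median of 11.23, and CORT lambs from 11.82 to 13.24 with a median of 12.55. The order of the group means was Control lambs (12.62), CORT lambs (12.58), Control fetuses (11.42) and CORT fetuses (11.30). Within each age the neighbours in this order did not differ beyond their spread.

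IGF2 did not pass the test between term and 2 weeks on either probe. On probe 1, Control fetuses ranged from 14.99 to 16.17 (median 15.46) and Control lambs from 14.59 to 15.84 (median 15.52), so the ranges overlapped over most of their length. The difference was -0.23 with a 95% interval from -0.68 to 0.21 (limma adjusted p = 0.409). On probe 2 Control fetuses ranged from 12.30 to 13.83 and Control lambs from 12.31 to 13.23, and the difference was -0.17 with an interval from -0.61 to 0.28. Control fetus 2 was the highest Control fetus on both probes. The order of the group means on probe 1 was Control fetuses (15.56), CORT fetuses (15.55), Control lambs (15.33) and CORT lambs (15.23), and no neighbours that were compared differed beyond their spread.

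IGF2R likewise did not pass the test with age. On probe 1 Control fetuses ranged from 8.39 to 8.79 (median 8.51) and Control lambs from 8.29 to 8.83 (median 8.42), a difference of -0.08 with a 95% interval from -0.28 to 0.11. Probe 2, which shares nearly all its bases, gave -0.16 with an interval from -0.34 to 0.01 (limma adjusted p = 0.121). Probe 2 passed the threshold under 2 alternatives: with limma's array weights the difference was -0.22 (adjusted p = 0.0304) and without Control fetus 1 it was -0.20 (adjusted p = 0.0472). Probe 3 gave 0.04, with an interval from -0.07 to 0.16. The order of the group means on probe 1 was CORT fetuses (8.84), Control fetuses (8.57), Control lambs (8.49) and CORT lambs (8.39), and no neighbours differed at an adjusted p under 0.05.

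Of the wider insulin-like growth factor system, 5 lists held 113 genes besides the 3, of which 29 were on the array under a name and 27 could be tested. Between Control fetuses and Control lambs 9 of the 27 were higher and 4 were lower at limma adjusted p under 0.05, or 48.1% against 40.9% of all probes. That share is near the one of the whole array, so the counts say little about these genes as a group, and the genes are given one by one.

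The binding proteins split. IGFBP4, which holds IGFs away from their receptor until it is cut, was between 12.11 and 12.94 in Control fetuses and between 13.69 and 14.27 in Control lambs, with no overlap. It rose by 1.36 (SE 0.13, limma adjusted p = 5.44e-07), and a second probe gave 1.37. IGFBP6, which prefers IGF2, was between 11.40 and 12.83 in Control fetuses and between 13.00 and 13.90 in Control lambs, again with no overlap. It rose by 0.78 (SE 0.19, limma adjusted p = 0.00364), and by 0.63 without Control fetus 2, the lowest fetus. IGFBP2 (-0.13), IGFBP3 (0.06) and IGFBP5 (-0.02) did not pass. IGFBP1 was too dim to be tested. So 2 of the 5 tested binding proteins rose and none fell, where limma called 19.9% of all probes higher and 21% lower. The median change over the 5 was 0.06, against -0.01 over all probes.

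Among the receptors and signalling genes, 1 of 4 passed, where 40.9% of all probes did. MTOR, a kinase that couples growth signals to protein synthesis, was between 11.30 and 11.72 in Control fetuses and between 10.57 and 10.77 in Control lambs, with no overlap. It fell by 0.74 (SE 0.06, limma adjusted p = 2.43e-07). IGF1R, the receptor through which both hormones signal, gave 0.20 (SE 0.14, limma adjusted p = 0.293). Without Control fetus 2, which was the highest fetus for it, the IGF1R difference was 0.30 with adjusted p = 0.0406. The other 2 IGF1R probes gave 0.01 and 0.18. The insulin receptor INSR gave -0.09 and the kinase AKT1 -0.11, neither past the threshold.

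In the growth hormone and thyroid axis, 2 of 6 tested genes rose and 1 fell, where 19.9% of all probes were called higher and 21% lower. GHR, the growth hormone receptor, was between 9.58 and 10.87 in Control fetuses and between 10.53 and 11.79 in Control lambs. It rose by 1.45 (SE 0.20, limma adjusted p = 2.68e-05), and by 1.59 without Control fetus 2, which was the highest fetus. PRL, the pituitary hormone prolactin, gave 0.27 (limma adjusted p = 0.0433), but it was well above background in only 5 of 8 Control fetuses and 5 of 7 Control lambs, and it lost its call in 11 of the fits that left out 1 animal. The other PRL probe gave 0.19 and did not pass. GHRHR, the receptor for growth hormone-releasing hormone, stood well above background in 4 of 8 Control fetuses but in 0 of 7 Control lambs. Its fetal mean was 1.08-fold above the level needed to stand well above background in the lambs, a ratio without an interval. The measured difference was -0.20 (limma adjusted p = 0.00876). The prolactin receptor PRLR, on the brightest of its 4 probes, stood well above background in 6 of 8 Control fetuses and 0 of 7 Control lambs. Its fetal mean was 1.21-fold above that level, again without an interval. The measured PRLR difference of -0.32 did not pass (limma adjusted p = 0.0691). It passed with array weights, without Control fetus 1 and without Control fetus 2. A second PRLR probe, well above background in 6 of 8 Control fetuses and only 1 of 7 Control lambs, passed (limma adjusted p = 0.0441), and the other 2 were not well above background in any animal. The thyroid hormone receptor THRB (0.15) did not pass, and THRA was not well above background in any Control animal, so no fold is given for it.

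**Figure D2:**
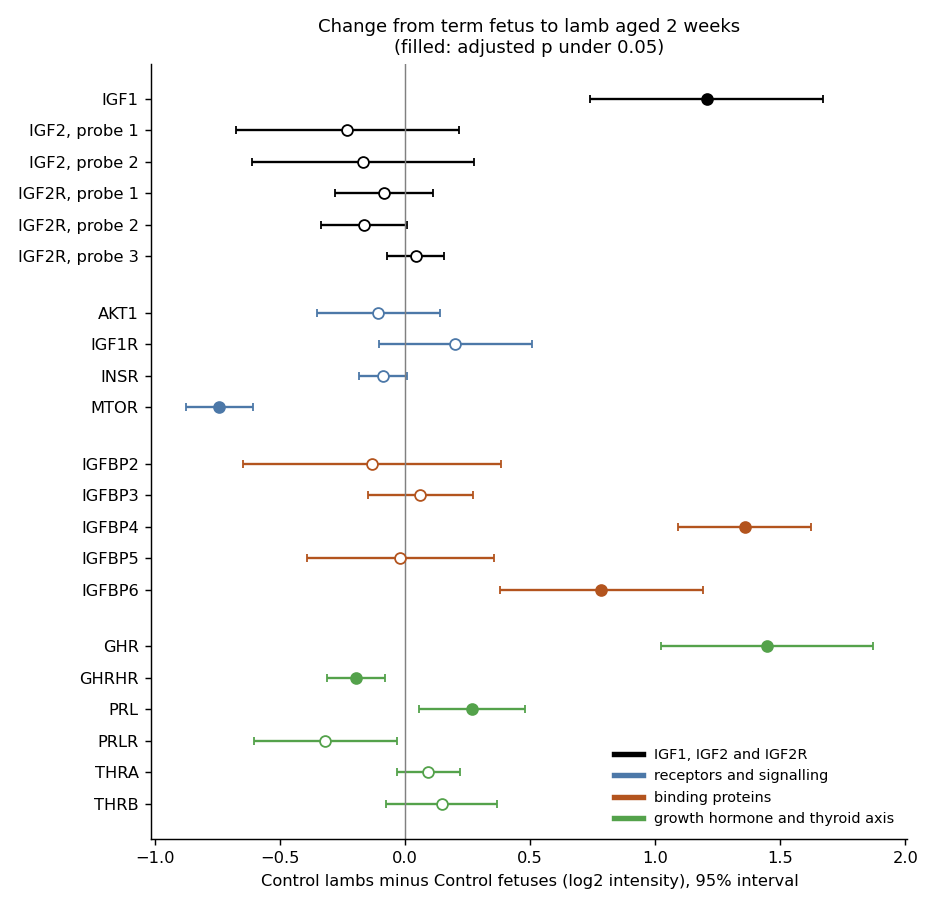
Difference between Control lambs and Control fetuses on the log2 scale, with 95% intervals, for IGF1, IGF2 and IGF2R and for the tested genes of receptors and signalling, binding proteins, and the growth hormone and thyroid axis; filled points have limma adjusted p under 0.05. IGF1, IGFBP4 and GHR lie furthest to the right, between 1.21 and 1.45, and MTOR furthest to the left at -0.74, while the points of GHRHR and PRLR (Control lambs) and of THRA (both groups) rest on intensities not well above background.

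Imprinted genes and genes of the lysosome were followed because of IGF2 and of the route that IGF2R serves. CDKN1C, an imprinted inhibitor of the cell cycle, was between 14.63 and 16.54 in Control fetuses and between 14.73 and 15.83 in Control lambs, and fell by 0.89 (limma adjusted p = 0.00985). Control fetus 2 was the lowest fetus for CDKN1C, against a fetal median of 16.19. MEG3, an imprinted long non-coding RNA, rose by 0.35 (limma adjusted p = 0.0257), but had adjusted p = 0.0661 with slide as a random block and lost its call without Control lamb 2, 5 or 6. Of 10 tested genes of mannose 6-phosphate cargo and the lysosome, 4 were higher and 1 was lower. Of all probes 19.9% were called higher and 21% lower, so this count says little about the list. The protease CTSS, abundant in macrophages, rose by 1.00 and its relative CTSB by 0.31. PSAP, the precursor of the saposins that help break down sphingolipids, rose by 0.56 with no overlap between the groups. TGFB1, a latent growth factor that IGF2R can bind, rose by 0.37, and PLAU, the urokinase, fell by 0.45 with no overlap.

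Some cell type markers also differed between the same 2 groups. The marker lists are short, and limma called 19.9% of all probes tested higher and 21% lower at this step. All 4 stromal markers on the array (DCN, COL1A1, COL3A1 and VIM) were higher in Control lambs. Their summed linear intensity was between 146464 and 227459 in Control fetuses and between 248078 and 311311 in Control lambs. VIM was the brightest of the 4 and weighs most in this sum. Of 9 adipocyte markers 4 were higher and 1 was lower, and of 3 macrophage markers 2 were higher, with summed intensities of 1044 to 1382 and 1593 to 2305. Of 3 endothelial markers 1 was lower, FLT1, which was well above background in only 4 of 7 Control lambs. The 3 together, of which PECAM1 was the brightest, had summed intensities of 5030 to 6826 and 3548 to 7007. None of the muscle, liver (ALB and TTR), erythroid or lymphocyte markers tested passed. The liver gene ApoA1, so spelled on the array, was not counted among these markers. It was between 8.45 and 9.64 in Control fetuses and between 9.88 and 11.56 in Control lambs, with no overlap. The part of these cell types in the rise of IGF1, IGFBP4, IGFBP6, GHR and CTSS was not tested.

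Maternal cortisol moved none of the 6 probes past the adjusted threshold at either age. In lambs limma called 0% of the 13077 probes at adjusted p under 0.05, and 3.57% had an unadjusted p under 0.05 (1.66% higher and 1.91% lower), among them 0 of the 6. IGF1 differed by -0.05 (95% interval from -0.45 to 0.36) between CORT and Control lambs. The exact two-sided permutation p over 11440 splits was 0.829. Over the ranges given above only 1 of the 9 CORT lambs lay below the lowest Control lamb. The interval reaches from a fall to 0.733 of the Control level to a rise to 1.28-fold, and these numbers of animals do not exclude changes inside it.

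IGF2R in lambs gave -0.10 on probe 1 (95% interval from -0.31 to 0.11), -0.09 on probe 2 and 0.04 on probe 3. CORT lambs ranged from 8.19 to 8.70 on probe 1 with a median of 8.28, within or just below the Control range of 8.29 to 8.83. The lowest 5 of the 9 CORT lambs were below all Control lambs. The exact permutation p for probe 1 was 0.337.

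IGF2 in lambs gave a pooled difference near 0 that was made of 2 opposite ones. On probe 1 CORT lambs ranged from 14.51 to 15.67 with a median of 15.35, and the pooled difference was -0.10 (95% interval from -0.51 to 0.32, exact permutation p = 0.653). On the first lamb slide the 4 Control lambs were between 15.52 and 15.84 and the 4 CORT lambs between 14.51 and 15.42, a difference of -0.62 with no overlap. On the second slide the 3 Control lambs were between 14.59 and 15.10 and the 5 CORT lambs between 14.87 and 15.67, a difference of 0.51. So CORT lambs were lower on one slide and higher on the other.

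Probe 2 gave the same pattern. It was 12.62 to 13.23 in Control and 12.21 to 12.78 in CORT lambs on the first slide, a difference of -0.55. On the second slide it was 12.31 to 12.88 in Control and 13.06 to 13.76 in CORT lambs, a difference of 0.63 with no overlap. Pooled over both slides probe 2 gave 0.07 (95% interval from -0.37 to 0.51). The difference between the slides was not tested, and it was noticed after the values were seen. How many of all probes separate in this way within a slide was not counted. With so few animals on a slide, groups can separate by chance. IGF1 gave -0.27 and 0.16 on these slides and IGF2R probe 1 gave -0.11 and -0.10.

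**Figure D3:**
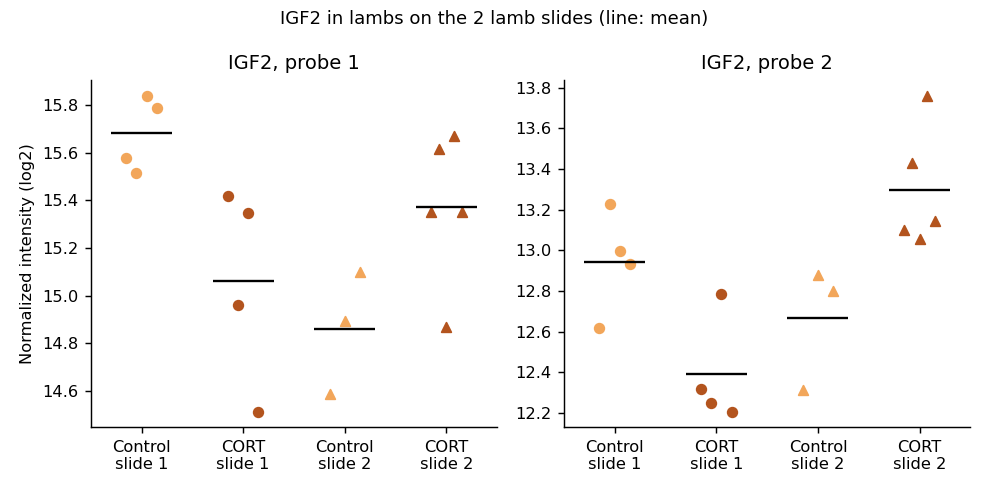
Normalized log2 intensity of IGF2 in each lamb by slide and treatment, probe 1 on the left and probe 2 on the right, with the mean as a line. On the first slide all CORT lambs lie below the Control lambs for probe 1, and on the second all CORT lambs lie above the Control lambs for probe 2. These separations rest on few animals per slide and were not tested.

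In fetuses limma again called 0% of the probes at adjusted p under 0.05, and 2.35% had an unadjusted p under 0.05 (1.21% higher and 1.14% lower), among them 1 of the 6, IGF2R probe 1. Control fetuses ranged from 8.39 to 8.79 on this probe with a median of 8.51. CORT fetuses ranged from 8.50 to 9.29 with a median of 8.84. Of the 6 CORT fetuses 5 lay above the Control mean and 4 above the highest Control fetus, so the groups overlapped.

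The IGF2R probe 1 difference was 0.27 (SE 0.11), or 1.21-fold with a 95% interval from 1.03 to 1.42. Its exact permutation p over 3003 splits was 0.0273, and its limma adjusted p was 1.00 (0.0239 unadjusted, with rank 128 of 13077). Within the slides the difference was 0.14 and 0.41. Without Control fetus 2 it was 0.26, still under 0.05 before adjustment. It no longer was without CORT fetus 5 (0.18) or CORT fetus 6 (0.25), with limma's array weights (0.20), with cyclic loess (0.22) or from the scanner software's own processed signal (0.32).

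The other probes of IGF2R gave smaller differences in fetuses. Probe 2 ranged from 8.09 to 8.54 in Control and from 8.17 to 8.98 in CORT fetuses, a difference of 0.20 (95% interval from -0.04 to 0.44, exact permutation p = 0.114). Probe 3 ranged from 6.66 to 6.90 and from 6.72 to 7.19, a difference of 0.08 (95% interval from -0.07 to 0.22). CORT fetus 5 was the highest animal of its group on all 3 IGF2R probes and on both IGF2 probes. Of 2 muscle markers on the array neither was called in this comparison. Their summed intensity was between 8213 and 179237 in Control fetuses (median 19327) and between 12129 and 65687 in CORT fetuses (median 23295). The highest Control sum was that of Control fetus 2, through TNNC2. Median MB was 14.11 in Control and 14.50 in CORT fetuses, and median TNNC2 was 7.24 in both. Macrophage markers summed to 1044 to 1382 in Control and 1149 to 1814 in CORT fetuses. Their part in the IGF2R values was not tested.

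IGF1 and IGF2 in fetuses did not pass with cortisol. IGF1 differed by -0.12 (95% interval from -0.68 to 0.44, exact permutation p = 0.676). IGF2 differed by -0.01 on probe 1 (95% interval from -0.46 to 0.44) and by 0.01 on probe 2 (95% interval from -0.56 to 0.58). CORT fetuses ranged from 15.01 to 16.29 on IGF2 probe 1 and from 12.24 to 13.86 on probe 2, much the same span as the Control fetuses.

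The fetal cortisol effect was also subtracted from the lamb one in a single fit. There limma called 0% of probes at adjusted p under 0.05, with 2.06% at an unadjusted p under 0.05 (1.09% higher and 0.971% lower). IGF2R was in the latter set on 2 of its probes. Probe 1 gave -0.37 (SE 0.15, 95% interval from -0.68 to -0.07, limma adjusted p = 1.00) and probe 2 gave -0.29 (95% interval from -0.58 to -0.00), while probe 3 gave -0.04. As probes 1 and 2 share 59 bases, they do not support each other independently. IGF1 gave 0.07 (95% interval from -0.60 to 0.75), and IGF2 -0.09 and 0.06.

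**Figure D4:**
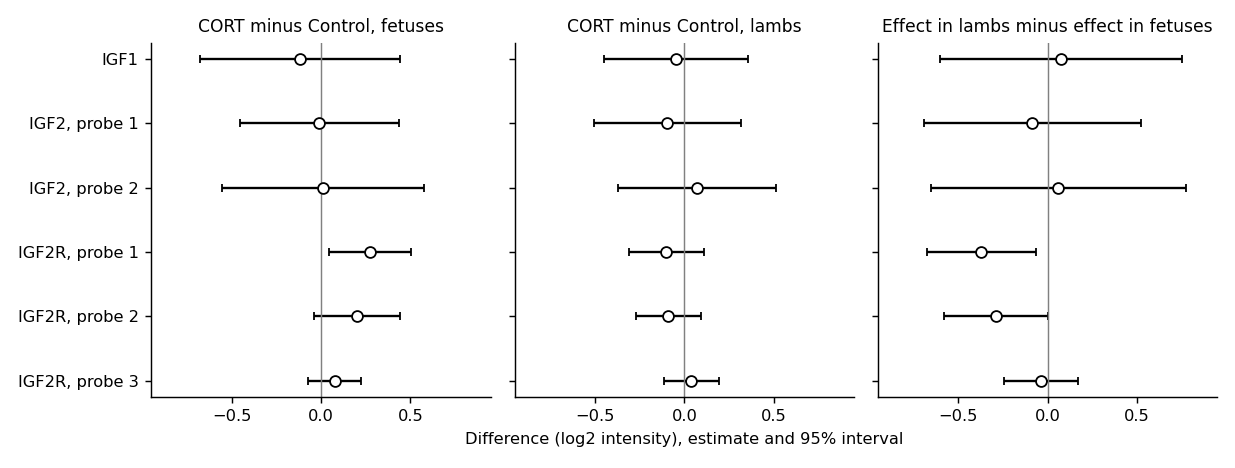
Cortisol effect on the 6 probes in fetuses and in lambs, and the lamb effect minus the fetal one, as log2 differences with 95% intervals that are not adjusted for the number of probes tested. The interval of IGF2R probe 1 excludes 0 in the fetal panel and in the panel of the 2 ages, and those of IGF1 and IGF2 span 0 in all 3 panels.

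Genes of the wider system stayed below the thresholds with cortisol. Of the 27 tested, 0 had an adjusted p under 0.05 in lambs, in fetuses or in the difference between the ages, and 0 had an unadjusted limma p under 0.05. The genes nearest to the threshold were IGFBP3 in lambs, at 0.19, and CTSS in fetuses, at 0.28 with all 6 CORT fetuses above the Control mean, both with limma adjusted p = 1.00. IGF1R gave 0.24 in fetuses (95% interval from -0.14 to 0.63) and -0.05 in lambs (95% interval from -0.42 to 0.32). The comparisons within an age share no animals with each other, and each shares its Control animals with the comparison of ages.

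The probes of a gene were compared through each animal's deviation from its group mean. The 2 IGF2 probes followed each other with r = 0.99 over 14 fetuses and r = 0.61 over 16 lambs. IGF2R probe 3 followed probe 1 with r = 0.72 in fetuses and 0.61 in lambs. The probes of IGF2 and of IGF2R thus varied together in the same direction, more closely in fetuses than in lambs as the values stand, and the difference between the ages was not tested.

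The 3 genes were not seen to vary with one another. Over 14 fetuses the deviations of IGF1 and IGF2 had Pearson r = 0.01 (permutation p = 0.984) and Spearman rho = -0.01 (permutation p = 0.978), and those of IGF1 and IGF2R had r = -0.24 (permutation p = 0.430) and rho = -0.33 (permutation p = 0.262). For IGF2 and IGF2R r was 0.46 (permutation p = 0.121, 0.726 after Benjamini-Hochberg adjustment over the 6 relations) and rho 0.31 (permutation p = 0.305). There r was 0.27 without the 2 animals farthest from the median and 0.31 with slide means removed. Over 16 lambs Pearson r was 0.06, 0.01 and 0.05 for the same 3 pairs, with permutation p of 0.830, 0.959 and 0.850, and rho was 0.06, 0.22 and 0.08, with permutation p of 0.830, 0.421 and 0.778. Without the 2 lambs farthest from the median r was 0.25, 0.43 and -0.24, so these lamb values rest in part on single animals. No relation passed.

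The named genes most like each member were found over the 30 animals, by r between deviations from the group means among 892 named genes. These values describe the animals, which share slides and tissue makeup, and carry no test. IGF1 was most like FGF10, a growth factor of stromal cells (r = 0.71, 0.86 in fetuses and 0.51 in lambs), then LOC100037677 (r = 0.61), described as a protein disulfide isomerase, and FLAP, the activator of 5-lipoxygenase (r = 0.61). It was least like TUBA4A, a tubulin (r = -0.58). Of the listed genes, IGFBP4 (r = 0.60), the adipocyte hormone LEP (r = 0.54), COL1A1 (r = 0.53) and IGFBP5 (r = 0.52) stood highest with IGF1.

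IGF2R was most like LOC443338 (r = 0.68), CRYAB, a small heat shock protein abundant in muscle (r = 0.64), and FGF1, a growth factor (r = 0.63), and least like GRINA (r = -0.66). Of the listed genes IGF1R (r = 0.60) and the muscle protein MB, myoglobin (r = 0.53), stood highest with IGF2R, and PPARG, the master regulator of adipocytes, was at r = -0.50. The other muscle marker, TNNC2, had r = 0.0044 with IGF2R. IGF2 was most like ApoA1, an apolipoprotein (r = 0.54), TIMELESS (r = 0.54) and ALB, serum albumin, and least like SNRPA1 (r = -0.55). ALB fell into 2 clusters of 15 animals, between 6.83 and 8.38 and between 11.14 and 14.37. Within these, r between the deviations of ALB and IGF2 was 0.47 and -0.41. The deviations were taken from means of whole groups, and each group holds animals of both clusters. No relation of ALB with IGF2 over all animals is therefore given. TIMELESS stood well above background in only 1 of 7 Control and 2 of 9 CORT lambs, close to the lower end of what the array reads.

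**Figure D5:**
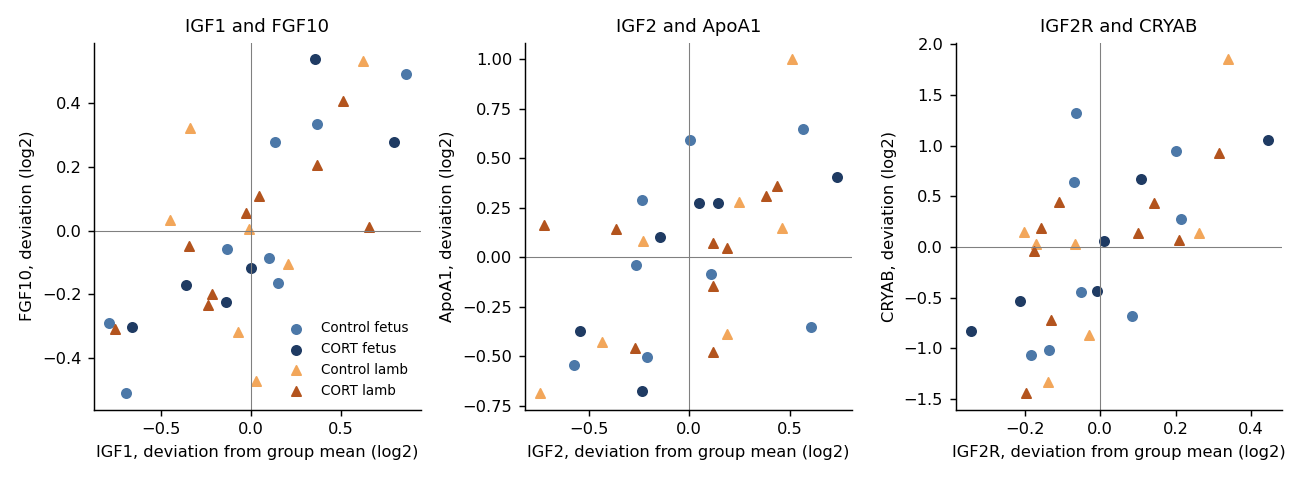
Deviation of each animal from its group mean on the log2 scale for IGF1 with FGF10, IGF2 with ApoA1 and IGF2R with CRYAB, with circles for fetuses and triangles for lambs. The points slope upward in each panel, with r = 0.71, 0.54 and 0.64 over 30 animals. Each group is centred by construction, so the panels do not show differences between groups.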

How the data were processed

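Epicardial fat RNA of 30 sheep was measured on 1-colour Agilent arrays, 1 array per animal. Per the file headers, the authors scanned the arrays with Agilent Feature Extraction 10.1.1.1, and the deposited scanner files give, for each spot, a mean intensity and a median local background intensity. A matrix that the authors normalized with limma, on the log2 scale, was deposited too. Of these only the lamb columns were used, as an alternative, because the fetal columns did not follow the scanner intensities.

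Normexp background correction (limma 3.58.1 in R 4.3.3, offset 50) was applied, outlier spots were left out, and the 30 arrays were quantile normalized on the log2 scale over probes and negative controls. Replicate spots were averaged. Probes at least 10% brighter than the 95th percentile of 77 negative control spots on at least 6 arrays were tested (13077 of 15008). Groups were taken from the sample titles. Only the compared groups entered each fit (lmFit and eBayes, two-sided, Benjamini-Hochberg over all probes tested). Exact permutation tests split the animals of each pair of groups in every way, and correlations used 100000 permutations within groups (scipy 1.17.1). The fits were tested on simulated data.

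Names came from the array's annotation and a RefSeq gene table (assembly ARS-UI_Ramb_v3.0), which covered 1659 probes (11.05%). Where a gene had several probes, the brightest stands for it. The genes named are the 3 members, the genes of the 5 lists and, for each member, the 3 most like and the 1 least like. The members and lists were chosen with earlier results of these data known. The array number per group limits the precision. Alternatives were no background correction, an offset of 16, the processed signal, cyclic loess, other filters, 1 fit of all arrays, array weights, slide and replicate blocks, leaving out each animal and the deposited lamb values. Keeping positive control spots in the normalization was added after seeing the data.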

Additional observations from a re-analysis of the deposited data

Results flagged for a closer look

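Among the 24 groups of animals tested for an animal far from its group over the 6 probes, 1 held such an animal, where chance alone gives about 1 in 20. CORT fetus 5 was at 7.19 on IGF2R probe 3 (A_70_P026306) and the nearest of the other CORT fetuses at 6.86, a gap of 0.697 of the group's range, past Dixon's 95% limit for 6 animals. The same fetus was the highest of its group on IGF2R probes 1 and 2, and without it the cortisol difference of IGF2R probe 3 was 0.0077 in place of 0.08.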

How the results depend on the processing

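The rise of IGF1 with age held under all 26 alternatives, from 1.08 to 1.33, with limma adjusted p between 8.48e-05 and 0.00373, and from 1.09 to 1.33 without each animal in turn. Of the 6 probes 1 passed in that comparison, and 2 with array weights, and 1 to 2 without each animal in turn (2 without Control fetus 1, through IGF2R probe 2). No IGF probe passed with cortisol under any alternative. With positive control spots kept in the normalization IGF2 probe 1 gave -0.40 with age and did not pass. The cause was not tested for any of these.

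Small cortisol differences changed sign. In lambs IGF1 gave 0.028 with array weights and -0.13 to 0.059 without each animal in turn, IGF2R probe 3 gave -0.0094 from the processed signal, and IGF2 probe 2 gave -0.038 to 0.16 without each animal. In lambs IGF2 probe 1 gave -0.62 and 0.51 within the slides. In fetuses IGF2 probe 1 gave 0.15 with cyclic loess, IGF2 probe 2 gave -0.0077 from the processed signal and -0.016 with array weights, and without each animal IGF1 gave -0.28 to 0.012 and IGF2 -0.16 to 0.10 and -0.16 to 0.16. In lambs less fetuses IGF2R probe 3 gave 0.0091 with array weights, and without each animal IGF1 gave -0.057 to 0.23, IGF2 -0.21 to 0.060 and -0.093 to 0.23, and IGF2R probe 3 -0.073 to 0.031. With age IGFBP2 gave -0.25 to 0.048 and IGFBP5 -0.13 to 0.084 without each animal. Of the relations, IGF1 with IGF2 in fetuses gave r = -0.065 with cyclic loess and -0.12 without the 2 farthest animals, IGF1 with IGF2R in lambs -0.0055 with slide means removed, and IGF2 with IGF2R in lambs -0.24 without the 2 farthest.

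Counts of probes at an unadjusted p under 0.05 moved more. In lambs 467 became 799 with array weights and 285 to 698 without each animal (285 without Control lamb 1). In fetuses 307 became 661 with cyclic loess and 239 to 523 without each animal (523 without Control fetus 2), and the adjusted count went from 0 to 1 without CORT fetus 2. In lambs less fetuses 269 became 459 with cyclic loess, 529 with array weights and 189 to 430 without each animal (430 without CORT lamb 1). From the processed signal the share of these probes that were higher was 35.3% in place of 46.5% in lambs and 39.5% in place of 52.8% in lambs less fetuses.

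Replicate numbers were shared between groups, but same-numbered animals did not deviate together in every pair: r over 0.1 was found in 5 of 7 pairs of lambs, 3 of 6 of fetuses and 1 of 7 between ages. With the replicate number as a block IGF1 gave 1.23 with age (adjusted p = 0.00373), IGF2 probe 2 gave -0.089 in lambs and -0.21 in lambs less fetuses, IGF2 probe 1 gave 0.085 in fetuses, and the fetal counts were 568 unadjusted and 1 adjusted, with 417 unadjusted in lambs less fetuses. The block changed no call of the 6 probes.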
